A study of Mus musculus with 9 samples.

Results

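Il2, Il3, Csf2, Lif and Il6 encode cytokines that T cells and other cells release after activation and that act on other cells as growth or survival factors. These 5 genes were chosen by name, by taking every probe set of the array that names 1 of them alone. Each had exactly 1 such probe set (Il2 10497878, Il3 10385918, Csf2 10385912, Lif 10373918, Il6 10520452), no probe set named 1 of them together with another gene, and all 5 were among the 19937 genes tested. Sorted mouse CD4 T cells were compared on 9 arrays (Affymetrix Mouse Gene 1.0 ST), 3 in each of 3 groups. The naive group was CD4+ CD44- cells, sorted by a further surface marker as well, taken at day 29 from spleens of mice under sham treatment. The acute Th2 group was CD4+ CD69+ ST2+ cells from the lung at day 29, from mice given 10 µg ovalbumin (OVA) with 1.5 mg aluminium hydroxide into the peritoneum on days 1, 14 and 21 and then 1% OVA aerosol on 3 days in a row. The chronic Th2 group was sorted by the same markers from the lung at day 104, from mice sensitised in the same way and challenged 2 times per week for 12 weeks. Cells of all 3 groups, the naive cells included, were stimulated with antibodies to CD3 and CD28 for 8 h after the sort, so that every level below is a level after stimulation. The labels do not state strain, sex, age or the content of the sham treatment. The titles call the replicates biological, but not whether a sample is 1 mouse or a pool, so that the p values measure the spread between these samples. Tissue, cell state, sort markers and OVA treatment change together against naive cells, and for the chronic Th2 group the day does too. Day and number of challenges change together between the Th2 groups. These cannot be told apart.

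IL-2 is the growth factor that activated T cells make for themselves and for regulatory T cells. It signals through IL-2Rα, IL-2Rβ and the common γ chain to JAK kinases and STAT5. IL-3 and GM-CSF, the product of Csf2, act on myeloid cells, among them basophils, mast cells, eosinophils and macrophages, through an α chain each and a shared β chain. LIF and IL-6 both use the signalling chain gp130 (Il6st) and STAT3, with LIFR or IL-6Rα as the other chain. In T cells these genes are transcribed within hours of T cell receptor stimulation by NFAT, AP-1 and NF-kB factors, and their messages are short-lived.

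The promoter windows of Il2, Il3, Csf2 and Il6 are printed because these 4 genes differed more between the chronic Th2 arrays than Lif did. Each window runs from 250 bases before to 50 bases after the start of the gene in RefSeq, on build GRCm38.p6, and is written 5′ to 3′ on the strand of the gene. Capitals mark matches, on either strand, to the NFAT core GGAAA, the AP-1 site TGANTCA, the cyclic AMP element TGACGTCA, the TATA box TATAAA or the NF-kB consensus. Il2 lies at chr3:37125905-37126204 on the minus strand, Il3 at chr11:54267230-54267529 and Csf2 at chr11:54249850-54250149 on the minus strand, and Il6 at chr5:30012864-30013163 on the plus strand.
Il2: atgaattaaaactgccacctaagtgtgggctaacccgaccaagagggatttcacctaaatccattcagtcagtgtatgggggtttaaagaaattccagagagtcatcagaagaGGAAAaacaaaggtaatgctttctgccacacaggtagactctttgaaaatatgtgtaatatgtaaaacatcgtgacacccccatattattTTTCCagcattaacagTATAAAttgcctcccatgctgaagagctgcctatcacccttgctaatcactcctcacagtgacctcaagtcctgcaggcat
Il3: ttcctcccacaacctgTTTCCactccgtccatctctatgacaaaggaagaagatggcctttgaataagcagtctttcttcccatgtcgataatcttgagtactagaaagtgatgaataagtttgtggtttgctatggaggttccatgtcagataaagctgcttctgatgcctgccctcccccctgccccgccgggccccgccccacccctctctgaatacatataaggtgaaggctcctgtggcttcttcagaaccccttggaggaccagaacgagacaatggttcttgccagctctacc
Csf2: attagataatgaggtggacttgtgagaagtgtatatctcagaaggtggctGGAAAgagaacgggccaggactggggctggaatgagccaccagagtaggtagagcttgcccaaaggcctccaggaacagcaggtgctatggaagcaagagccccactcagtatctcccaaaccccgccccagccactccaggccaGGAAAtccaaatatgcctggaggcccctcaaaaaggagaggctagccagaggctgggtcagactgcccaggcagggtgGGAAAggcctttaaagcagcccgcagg
Il6: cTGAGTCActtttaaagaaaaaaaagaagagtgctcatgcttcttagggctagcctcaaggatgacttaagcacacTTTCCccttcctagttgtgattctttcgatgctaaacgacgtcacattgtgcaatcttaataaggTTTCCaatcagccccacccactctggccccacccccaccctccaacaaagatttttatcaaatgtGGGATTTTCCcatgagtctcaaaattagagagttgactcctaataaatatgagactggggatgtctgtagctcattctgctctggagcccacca

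The Il2 window held 2 NFAT cores and a TATA box at positions -31 to -26 from the start. The Il3 window held 1 NFAT core and the Csf2 window 3. The Il6 window held 3 NFAT cores, 1 AP-1 site and 1 NF-kB match, and 1 of the NFAT cores lies inside the NF-kB match. The window of Lif, at chr11:4257318-4257617 on the plus strand, held 1 NFAT core and 1 AP-1 site. Of 32851 mouse promoter windows of this length, 61.3% held the NFAT core, 13.6% the TATA box, 7.81% the AP-1 site, 4.51% the NF-kB match and 1.79% the cyclic AMP element. The NFAT core is thus a common word, and the match in each of the 5 windows describes these letters only.

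Some arrays stood apart from the rest of their group, and this touches every result on these genes. Naive 1 had a Pearson r of 0.939 and 0.941 over all genes with naive 2 and naive 3, which had 0.991 with each other. Chronic Th2 3 had a higher r with acute Th2 3 (0.991) than with chronic Th2 1 (0.980) or chronic Th2 2 (0.985). Acute Th2 1 had about the same r with acute Th2 2 (0.9873) as with chronic Th2 2 (0.9875), and 0.9897 with acute Th2 3. Olfactory receptor genes, 1015 genes used in the nose, stand in for background. Their array medians were 5.67, 5.51 and 5.15 on chronic Th2 1, 2 and 3, and 4.94 to 5.21 on the other arrays. The 95th percentile of their means, a log2 intensity of 6.53, is called the background level below. Taken array by array, the 95th percentile was 7.14 and 6.88 on chronic Th2 1 and 2, and 6.32 to 6.68 on the other arrays. A level slightly above 6.53 on chronic Th2 1 or 2 can thus lie within the background of that array. Levels are log2 intensities, which do not compare different genes because each probe set binds its own target differently. A gene was called where the adjusted p of limma, fitted to all 9 arrays and adjusted by Benjamini and Hochberg over 19937 genes, was under 0.05. The fit takes 1 spread per gene from all 3 groups. A wide spread among naive arrays thus also widens the interval between the Th2 groups. Exact permutation of 3 arrays against 3 cannot give a two-sided p under 0.1 and was not used.

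Il2, the T cell growth factor itself, had levels of 5.07, 11.33 and 11.27 on naive arrays 1, 2 and 3. It had 10.94, 12.01 and 11.69 in acute Th2 cells and 9.95, 8.95 and 11.70 in chronic Th2 cells. Naive 1 was thus below the background level while the other naive arrays were within the range of the acute ones, and the naive range spans all other arrays except acute Th2 2, acute Th2 3 and chronic Th2 3. The means were 9.22 ± 3.60 (SD, n = 3) in naive, 11.55 ± 0.55 in acute and 10.20 ± 1.39 in chronic Th2 cells. No neighbours in this order differed beyond the spread that the fit takes from all 3 groups, of which the naive one is the widest. The difference of acute Th2 minus naive was 2.33 with a 95% confidence interval from -1.18 to 5.83 (adjusted p = 0.560). Chronic Th2 minus naive was 0.98 (-2.52 to 4.48, adjusted p = 0.702), and chronic minus acute Th2 was -1.35 (-4.85 to 2.16, adjusted p = 0.648). Without naive 1, the difference of chronic Th2 minus naive turned to -1.10 (adjusted p = 0.297) and that of acute Th2 minus naive was 0.25 (adjusted p = 0.920). On 2 of their 3 arrays, stimulated naive cells thus had Il2 levels within the range of acute Th2 cells. In bulk samples such as these, fewer cells with the message and less message per cell cannot be told apart.

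Il3, a factor for basophils, mast cells and their precursors, had the largest difference between naive and Th2 cells of the 5 genes. Its levels were 4.23, 7.34 and 6.74 in naive cells, 12.13, 12.86 and 12.56 in acute Th2 cells, and 10.11, 8.91 and 12.47 in chronic Th2 cells. All 6 Th2 arrays were above all naive arrays, naive 1 was below the background level, and chronic Th2 3 lay within the acute range while chronic Th2 1 and 2 were below it. The means were 6.10 ± 1.65 in naive, 12.51 ± 0.36 in acute and 10.50 ± 1.81 in chronic Th2 cells. Il3 rose in acute Th2 cells by 6.41 ± 0.98 (SE) on the log2 scale, with a 95% confidence interval from 4.18 to 8.64 (adjusted p = 0.00564). The naive mean is under the background level, so this is 85.2-fold in intensity and not a ratio of message. The call held without any 1 array, with differences from 5.47 (without naive 1, adjusted p = 0.00267) to 7.03. Il3 also rose in chronic Th2 cells, by 4.39 (2.16 to 6.63, adjusted p = 0.0302). That call was lost without naive 3, without any 1 of the 3 acute Th2 arrays or without chronic Th2 1, at an adjusted p of up to 0.0960, and with only the 6 arrays compared (adjusted p = 0.115). The difference between the Th2 groups was -2.02 (-4.25 to 0.21, adjusted p = 0.357) and was not called. Its interval rests on the spread of all 3 groups, and the naive SD of 1.65 is near the chronic one of 1.81.

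Csf2, which encodes GM-CSF and lies next to Il3 on the chromosome, had the same order of group means with smaller differences. Its levels were 5.34, 8.89 and 8.19 in naive cells, 9.91, 10.48 and 10.06 in acute Th2 cells, and 8.71, 8.45 and 9.99 in chronic Th2 cells. Acute Th2 arrays were all above naive arrays, chronic Th2 1 and 2 lay between naive 2 and naive 3, and chronic Th2 3 lay within the acute range. The means were 7.47 ± 1.88, 10.15 ± 0.30 and 9.05 ± 0.83. Acute Th2 minus naive was 2.68 ± 0.82 (SE), with an interval from 0.81 to 4.55, and was not called (adjusted p = 0.120). Without naive 1 it was smaller, 1.61, and was called (adjusted p = 0.0385). Chronic Th2 minus naive was 1.58 (-0.29 to 3.45, adjusted p = 0.258) and chronic minus acute Th2 was -1.10 (-2.97 to 0.77, adjusted p = 0.500). Neither the step from naive to chronic nor that from chronic to acute Th2 cells exceeded the spread taken from all 3 groups. The naive SD is the largest of them.

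Lif, a gp130 cytokine named for its effect on leukaemia cells, had levels of 5.67, 7.38 and 7.32 in naive cells. It had 7.84, 8.03 and 7.85 in acute and 7.60, 7.61 and 7.74 in chronic Th2 cells. All chronic Th2 arrays were above all naive arrays and below all acute ones, so the groups did not overlap, and naive 1 was again the array below the background level. The means were 6.79 ± 0.97, 7.90 ± 0.11 and 7.65 ± 0.08. Acute Th2 minus naive was 1.11 (0.22 to 2.01, adjusted p = 0.181), and without naive 1 it was 0.55 and was called (adjusted p = 0.00598). Chronic Th2 minus naive was 0.86 (-0.03 to 1.76, adjusted p = 0.210) and chronic minus acute Th2 was -0.25 (-1.15 to 0.64, adjusted p = 0.742). The interval between the Th2 groups also rests on the naive SD of 0.97, beside SDs of 0.11 and 0.08 in the groups compared. On naive 2 and 3, Lif was less than 1 log2 unit below the acute Th2 arrays.

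Il6, best known as a product of myeloid and stromal cells, was dim on nearly all arrays. Its levels were 3.97, 3.76 and 3.76 in naive cells, 5.62, 6.74 and 6.30 in acute Th2 cells, and 4.68, 4.85 and 6.14 in chronic Th2 cells. Acute Th2 2 alone was above the background level of 6.53, all Th2 arrays were above all naive arrays, and chronic Th2 3 lay within the acute range. Naive 1 did not stand apart here, and the means were 3.83 ± 0.12 in naive, 6.22 ± 0.57 in acute and 5.23 ± 0.80 in chronic Th2 cells. Il6 rose in acute Th2 cells by 2.39 ± 0.39 (SE), 5.24-fold on the intensity scale, with an interval from 1.49 to 3.29 (adjusted p = 0.00825), and the call held without any 1 array. Because the naive values are within background, the fold describes intensities and not a ratio of message. Chronic Th2 minus naive was 1.39 (0.50 to 2.29) and was not called (adjusted p = 0.0696), but it was without naive 1, at 1.46 (adjusted p = 0.0499). Chronic minus acute Th2 was -0.996 (-1.89 to -0.10), at an unadjusted p of 0.0335 and an adjusted p of 0.324.

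**Figure D1:**
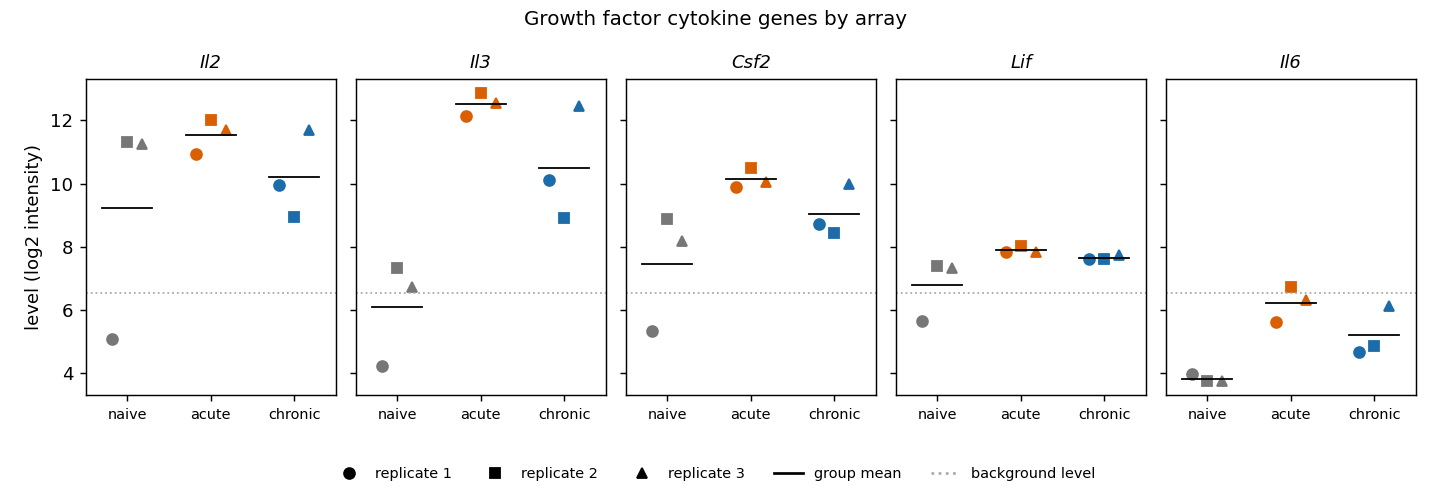
Levels of the 5 genes on each array, as log2 intensity, by group, with the replicate number as the symbol, a bar for the group mean of 3 arrays and a dotted line for the background level of 6.53. Naive 1 is the low circle of Il2, Il3, Csf2 and Lif, and chronic Th2 3 is the high triangle of Il2, Il3, Csf2 and Il6, near the acute Th2 arrays.

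In acute Th2 against naive cells, 2 of the 5 genes (Il3 and Il6) were called, both higher, where 3.67% of all genes were called higher. Arrays of the groups did not overlap for 4 of the 5 (all but Il2), all higher, where 8.8% of all genes were higher without overlap. In chronic Th2 against naive cells, 1 of the 5 (Il3) was called higher, where 3.68% of all genes were. There the arrays did not overlap for Il3, Lif and Il6, all higher, against 15.6% of all genes. The median difference of the 5 genes was 2.39 in acute and 1.39 in chronic Th2 cells, beside -0.03 and 0.04 over all genes tested. The comparisons share the naive arrays, so that their results are not independent of each other. Between chronic and acute Th2 cells 0 of the 5 were called by limma and 1 (Il6) had an unadjusted p under 0.05, where 0.0301% of all genes (6 genes) were called. All 5 differences were below 0, with a median of -1.10 beside 0.04 over all genes, and only Lif had no overlap, being lower as 10.8% of all genes were.

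The counts depended on naive 1. Without it, 4 of the 5 genes (all but Il2) were called higher in acute Th2 cells, where 6.05% of all genes were. In chronic Th2 cells 2 of the 5 (Il3 and Il6) were then called higher, where 5.84% of all genes were. Between the Th2 groups 0 of 5 were called, as in the fit to all arrays, where 0.0602% of all genes were. Weighting the arrays by their quality as limma estimates it also called 4 of 5 higher in acute Th2 cells (9.77% of all genes) and 2 of 5 higher in chronic Th2 cells (10.4%). The weights come from these same values, so this is not a separate test.

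**Figure D2:**
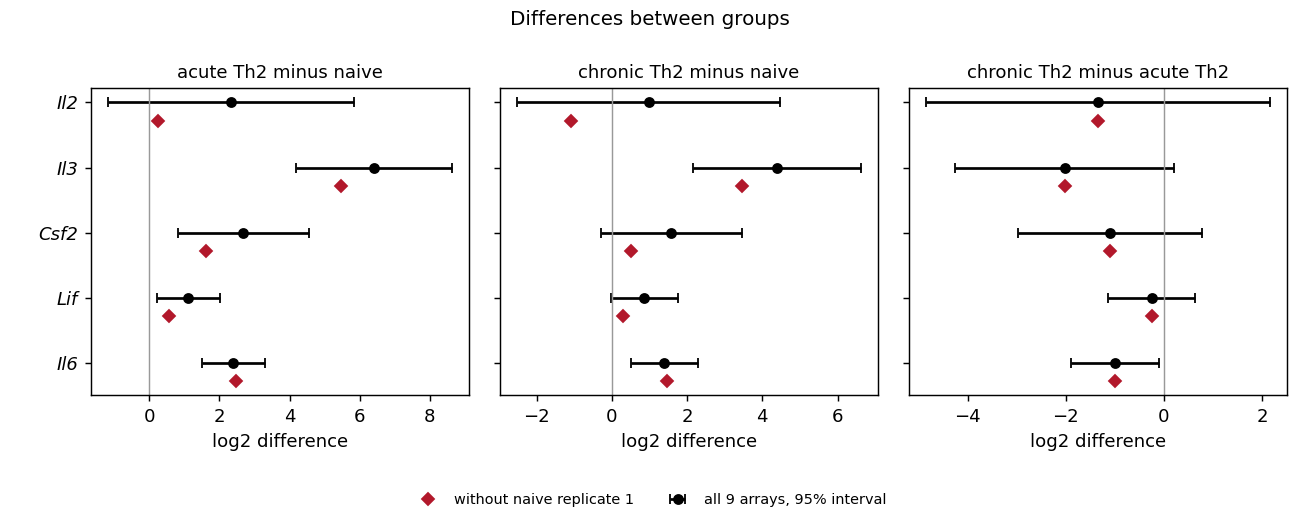
Differences of group means in log2 units for each gene in the 3 comparisons. Black points with bars are the differences and their 95% confidence intervals from the fit to all 9 arrays, and red diamonds are the differences without naive 1. The intervals of Il3 and Il6 lie above 0 in both comparisons with naive cells, and Il2 in chronic Th2 cells moves from 0.98 to -1.10 without naive 1.

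The spread of Il2, Il3 and Csf2 was among the larger ones of all genes in each group, while that of Lif and Il6 depended on the group. In the naive group Il2 had the highest SD of all 19937 genes (3.60, against a median of 0.144), Il3, Csf2 and Lif had 1.65, 1.88 and 0.97, and Il6, at 0.12, was below the median. In the acute Th2 group, with a median of 0.114, the SDs were 0.55 for Il2, 0.36 for Il3, 0.30 for Csf2 and 0.57 for Il6, and Lif, at 0.11, was below the median. In the chronic Th2 group Il3 had an SD of 1.81, which 1 other gene exceeded, Il2 one of 1.39, which 5 genes exceeded, and Csf2 and Il6 ones of 0.83 and 0.80, which 41 and 45 genes exceeded. The median SD of the chronic group was 0.133, and Lif, at 0.08, was below it. The highest value of the chronic group was on chronic Th2 3 for all 5 genes. The acute arrays were ordered too, with acute Th2 2 highest and acute Th2 1 lowest for all 5 genes. The acute ranges ran from 0.19 for Lif to 1.12 for Il6. Chronic Th2 3 was above chronic Th2 1 and 2 by 2.36 and 3.56 for Il3, by 1.75 and 2.76 for Il2, by 1.28 and 1.54 for Csf2, by 1.46 and 1.29 for Il6, and by 0.14 and 0.12 for Lif. The same arrays differed in the median of the olfactory receptor genes, at 5.67 and 5.51 on chronic Th2 1 and 2 and 5.15 on chronic Th2 3. Whether that has a part in the step was not tested.

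Of other cytokine genes, Il5, Il4, Il9 and Il21 did not show the step to chronic Th2 3 of Il2, Il3, Csf2 and Il6. Tnf, given below, was higher there. Il5, the growth factor of eosinophils, had 12.43, 12.31 and 12.54 on the chronic Th2 arrays. Il4, the cytokine that drives Th2 differentiation, had 11.97, 11.93 and 11.96. Il9, a mast cell growth factor, had 12.21, 11.97 and 11.76, and Il21, which lies next to Il2, had 8.09, 7.98 and 7.98. Of 32 genes of the early T cell receptor response, 23 were higher on chronic Th2 3 than on both other chronic arrays, 8 were lower than on both and 1 lay between, with a median step of 0.28 over the mean of the others. Among those with a step up, picked after their values were seen, the nuclear receptor gene Nr4a1 had 10.71, 10.71 and 12.12 on the chronic Th2 arrays, Tnf 6.98, 6.96 and 8.24, and Cd69, an early activation marker that was also used for the sort, 10.24, 10.22 and 11.14. Others were lower on chronic Th2 3, among them Ccl3, by differences of -0.51 and -0.49, and Xcl1, by -0.32 and -0.25. The shares over all genes were not counted, so the counts of 23 and 8 are not read as particular to these 32 genes. Whether the strength or timing of the stimulation differed between arrays was not tested.

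**Figure D3:**
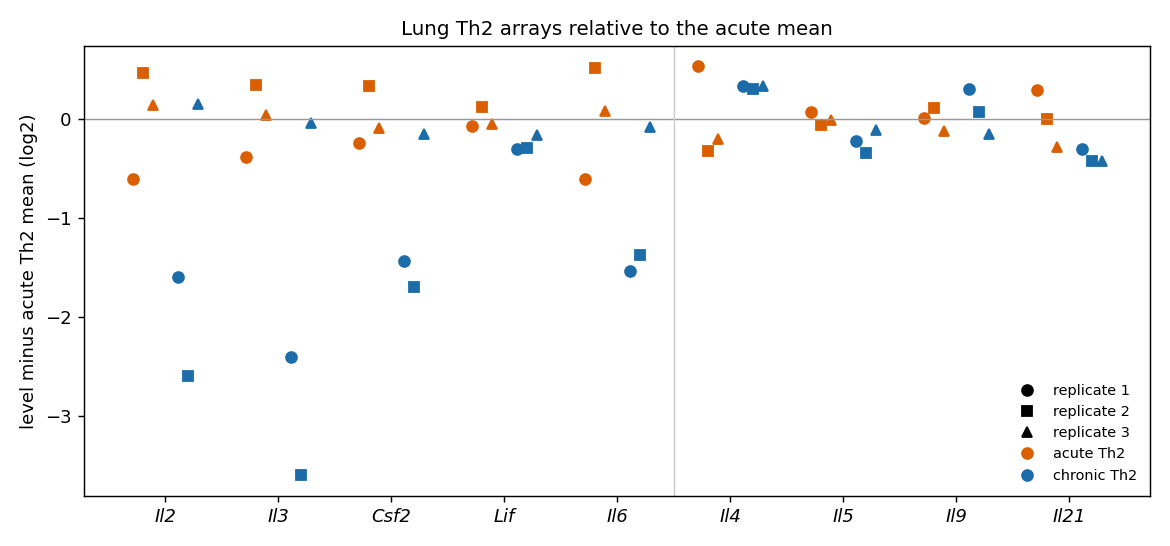
Level of each gene on the 6 lung Th2 arrays minus its mean over the 3 acute Th2 arrays, in log2 units, with the replicate number as the symbol. On chronic Th2 1 and 2, values for Il2, Il3, Csf2 and Il6 run from -3.60 to -1.37, while on chronic Th2 3 they run from -0.16 to 0.15, and those of Il4, Il5, Il9 and Il21 on the 6 arrays run from -0.42 to 0.53.

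Leaving out naive 1 and chronic Th2 3 together, chosen after seeing the data, called 4 of the 5 genes lower in chronic than in acute Th2 cells, where 2.61% of all genes were called lower. The differences were -2.10 for Il2 (adjusted p = 0.0271), -3.01 for Il3 (adjusted p = 0.0169), -1.57 for Csf2 (adjusted p = 0.0221) and -1.45 for Il6 (adjusted p = 0.0348). The array left out is the chronic one nearest the acute arrays, so this setting widens the difference by construction and leaves 2 chronic arrays. In the same setting 4 of 5 were called higher in acute Th2 cells against naive cells (6.56% of all genes). In chronic Th2 cells 2 of 5 were called higher (10.2%) and Il2 lower, at -1.85 (adjusted p = 0.0117, where 13.2% of all genes were called lower). Array weights called the same 4 genes lower in chronic than in acute Th2 cells, where 13.8% of all genes were called lower. These weights are estimated from the same arrays, so this is not support separate from leaving out naive 1 and chronic Th2 3.

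Of the receptor chains for these cytokines, 9 of 10 genes were measured, and Il2rg is not analysed here. Il2rb, the IL-2 receptor β chain, had 8.99, 8.78 and 9.21 in naive cells, 11.16, 11.27 and 11.19 in acute and 11.06, 11.07 and 11.37 in chronic Th2 cells. It rose by 2.21 (adjusted p = 2.00e-05) and 2.17 (adjusted p = 2.10e-05), with no overlap. Il2ra, the high-affinity α chain, had 9.39, 12.03 and 12.44 in naive cells, 13.22, 13.16 and 13.13 in acute and 13.30, 13.21 and 13.15 in chronic Th2 cells. Naive 1 was far below the other naive arrays, as for Il2. The differences of 1.88 and 1.93 were not called (adjusted p = 0.176 and 0.113), but without naive 1 they were, at 0.94 and 0.98 (adjusted p = 0.00145 and 0.000973). Il2ra did not show the step between the chronic arrays that Il2 showed.

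Il6st, the shared chain of the receptors for IL-6 and LIF, had 9.97, 9.98 and 9.75 in naive cells, 8.94, 9.30 and 9.28 in acute and 9.15, 9.17 and 9.04 in chronic Th2 cells. It fell by 0.73 (adjusted p = 0.00786) and by 0.78 (adjusted p = 0.00543), without overlap. Il6ra had 10.66, 8.67 and 8.77 in naive cells, 7.71, 7.80 and 7.82 in acute and 7.30, 7.35 and 7.48 in chronic Th2 cells, and naive 1 was the highest array here. Its difference of -1.59 in acute Th2 cells was not called (adjusted p = 0.0903), though without naive 1 it was, at -0.94 (adjusted p = 0.000245). In chronic Th2 cells it fell by 1.99 (adjusted p = 0.0319), a call lost without any 1 Th2 array (the highest adjusted p was 0.121). The genes for the LIF receptor chain (Lifr, 4.41 to 4.76 on all arrays) and for the α and β chains for IL-3 and GM-CSF (Il3ra 7.50 to 7.83, Csf2ra 7.50 to 7.87, Csf2rb 5.66 to 6.56, Csf2rb2 6.33 to 7.22) were not called in any comparison. Csf2rb and Csf2rb2 are close copies, so that their probes may bind both messages.

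Of the 9 receptor genes, 1 was called higher and 1 lower in acute Th2 cells (3.67% and 2.2% of all genes). In chronic Th2 cells 1 was called higher and 2 lower (3.68% and 4.2% of all genes). Without naive 1 the counts were 2 higher and 2 lower in both. The shares of all genes were then 6.05% higher and 6.11% lower in acute, and 5.84% and 11.4% in chronic Th2 cells. In chronic against acute Th2 cells 0 of 9 were called by limma, and 1 had an unadjusted p under 0.05.

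**Figure D4:**
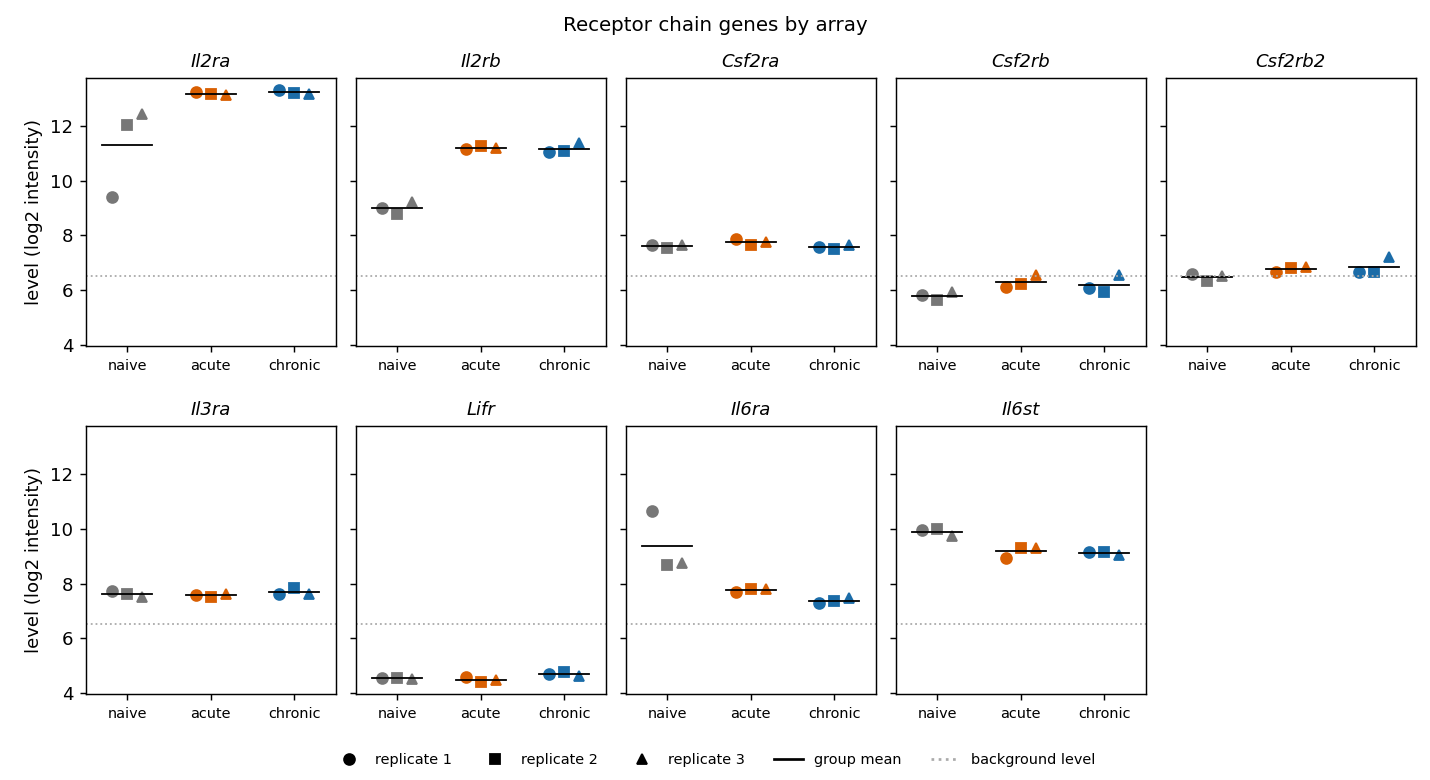
Levels of 9 receptor chain genes on each array, as log2 intensity, with the replicate number as the symbol, a bar for the mean of 3 arrays and a dotted line for the background level of 6.53. Il2rb is higher and Il6st lower on all Th2 arrays than on all naive arrays, and naive 1 is low for Il2ra and high for Il6ra.

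Among 12 measured cytokine genes of the same receptor families, 4 were called higher and 1 lower in acute Th2 cells (3.67% and 2.2% of all genes) and 5 higher and 1 lower in chronic Th2 cells (3.68% and 4.2%), with list medians of 0.06 and 0.22. Those that rose were Il5 (by 7.50 in acute and 7.27 in chronic Th2 cells), Il9 (6.35 and 6.42), Il4 (5.57 and 5.89) and Il21 (3.56 and 3.17), all with an adjusted p of at most 7.02e-06. IL-5 signals through the β chain of IL-3 and GM-CSF, and IL-4, IL-9 and IL-21 use the common γ chain of IL-2. Clcf1, a gp130 cytokine, fell by 1.30 in acute Th2 cells (adjusted p = 0.000263) and by 1.44 in chronic Th2 cells (adjusted p = 0.000141). Il15, which shares IL-2Rβ with IL-2, was below the background level on all arrays and was called in chronic Th2 cells at 0.39 (adjusted p = 0.0325), a call lost without naive 2, acute Th2 3, chronic Th2 1 or chronic Th2 2. Il3 was the only 1 of the 5 growth factor genes called in both comparisons with naive cells.

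Of 21 measured genes of JAK-STAT signalling and its feedback, 3 were called higher and 1 lower in acute Th2 cells (3.67% and 2.2% of all genes), and 5 higher and 1 lower in chronic Th2 cells (3.68% and 4.2%). Socs2, a STAT5-induced feedback inhibitor, rose by 3.23 (adjusted p = 3.20e-05) and 3.52 (adjusted p = 1.90e-05). Stat5a, which carries the IL-2 signal, rose by 1.61 (adjusted p = 0.00520) and 1.45 (adjusted p = 0.00861). Stat3, which carries the signals of IL-6 and LIF, rose by 1.07 (adjusted p = 0.00311) and 1.26 (adjusted p = 0.00119). In chronic Th2 cells the feedback inhibitor genes Socs1 (0.53, adjusted p = 0.0357) and Socs3 (1.11, adjusted p = 0.0348) were called too, calls lost without 7 and without 8 of the 9 arrays. The phosphatase gene Ptpn6 fell by 1.44 (adjusted p = 1.47e-05) and by 1.39 (adjusted p = 1.74e-05). Without naive 1 the list had 6 higher and 2 lower in acute Th2 cells (6.05% and 6.11% of all genes) and 7 higher and 3 lower in chronic Th2 cells (5.84% and 11.4%).

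Of 18 genes known as targets of IL-2 and STAT5, 3 were called higher in acute and 5 in chronic Th2 cells (3.67% and 3.68% of all genes), and 0 lower. Gzmb, the cytotoxic protease granzyme B, rose by 5.05 (adjusted p = 4.53e-05) and 4.56 (adjusted p = 8.89e-05). Prdm1, which encodes the repressor Blimp-1, rose by 3.60 (adjusted p = 1.74e-07) and 3.97 (adjusted p = 8.23e-08). The others were Socs2 and, in chronic Th2 cells, Socs1 and Socs3. Without naive 1, 9 were called higher and 2 lower in both comparisons (6.05% and 6.11% of all genes in acute, 5.84% and 11.4% in chronic Th2 cells), without naive 3 the acute count was 5 higher and 1 lower, and the chronic count was 3 without naive 2, any acute Th2 array, chronic Th2 2 or chronic Th2 3. The medians were 0.58 and 0.40. In chronic against acute Th2 cells 0 of the list were called by limma and 1 had an unadjusted p under 0.05.

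Of 13 genes known to repress Il2, 5 were called higher in acute and 6 in chronic Th2 cells (3.67% and 3.68% of all genes) and 0 lower, with medians of 0.65 and 0.72. Besides Prdm1 these were the Ikaros family genes Ikzf3 (by 1.70 and 2.08), Ikzf2 (1.42 and 1.11) and Ikzf4 (1.21 and 1.21), and Foxp3 (1.41 and 1.13), the factor of regulatory T cells, which a sort for CD4, CD69 and ST2 can hold. In chronic Th2 cells Crem was called too, at 0.92 (adjusted p = 0.0359), a call lost without 7 of the 9 arrays. Il2 itself was not called in either comparison.

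Of 21 measured NFAT, AP-1 and NF-kB factors, 1 was called higher in each comparison with naive cells, near the shares of 3.67% and 3.68% of all genes. This was Batf, an AP-1 factor of T cell effector programmes, which rose by 2.54 (adjusted p = 2.88e-05) and 2.30 (adjusted p = 5.51e-05). Without naive 1 the counts were 5 higher and 3 lower in acute (6.05% and 6.11% of all genes) and 5 higher and 4 lower in chronic Th2 cells (5.84% and 11.4%), and without naive 3 the chronic count was 2 higher. Naive 1 stood apart in genes of this list as well, in both directions. Jun was 10.92 there against 7.52 and 7.95 on the other naive arrays, and Fos 9.49 against 7.45 and 7.74. Others were lower there, among them Fosl1, at 6.54 against 8.72 and 9.17, and Rel, at 10.72 against 12.02 and 12.23. These genes were picked after their values were seen.

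Of 32 genes that T cell receptor signals induce early, 3 were called higher and 2 lower in acute Th2 cells (3.67% and 2.2% of all genes), and 3 higher and 3 lower in chronic Th2 cells (3.68% and 4.2%). The MAP kinase phosphatase gene Dusp4 rose by 2.29 and 2.00, and Ier3 by 1.84 and 2.36. Tagap fell by 2.20 (adjusted p = 0.0196, lost without naive 2, naive 3, acute Th2 1 or acute Th2 3) in acute Th2 cells, and it fell by 2.70 in chronic Th2 cells (adjusted p = 0.00717). Dusp2 fell by 1.70 in acute Th2 cells and fell by 1.65 in chronic Th2 cells. The array median of the list was 8.47 on naive 1 and 9.98 and 10.20 on naive 2 and 3. It was 9.19 to 9.27 on the acute and 8.85, 9.23 and 9.35 on the chronic Th2 arrays. Without acute Th2 1 the acute count was 2 higher and 1 lower. Without naive 1, 7 were called higher and 13 lower in acute Th2 cells (6.05% and 6.11% of all genes), and 7 higher and 16 lower in chronic Th2 cells (5.84% and 11.4%). On naive 1, where Il2, Il3, Csf2 and Lif were low, 24 of the 32 genes were lower than on both other naive arrays, 6 were higher than on both and 2 lay between. The share over all genes was not counted, so these counts are not read as particular to the list. Whether naive 1 had been stimulated like the other arrays was not tested. Irf4, which the T cell receptor induces, was 6.87 on naive 1 and 11.58 to 11.89 on the other arrays, and Ccl3 was 5.54 there and 9.43 to 11.40 elsewhere, while Dusp1 was higher there, at 11.95 against 9.44 and 9.86 on the other naive arrays (all 3 picked after their values were seen).

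Of 15 measured genes of cytokine mRNA decay, 1 was called higher and 1 lower in both comparisons with naive cells, close to the shares of all genes (3.67% and 2.2% in acute, 3.68% and 4.2% in chronic Th2 cells). Zc3h12d, a relative of the RNase gene Zc3h12a, rose by 0.64 (adjusted p = 0.0148, lost without acute Th2 2 or 3) and 0.52 (adjusted p = 0.0319, lost without 6 of the 9 arrays). Cnot7, a deadenylase subunit, fell by 0.51 (adjusted p = 0.0373, lost without 6 of the 9 arrays) and by 0.71 (adjusted p = 0.00754). Without naive 1 the counts were 1 higher and 3 lower in acute (6.05% and 6.11% of all genes) and 2 higher and 4 lower in chronic Th2 cells (5.84% and 11.4%). Between the Th2 groups 0 genes of any of these lists were called by limma, and 0 to 3 genes of a list had an unadjusted p under 0.05.

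The genes next to the 5 cytokine genes were taken from the RefSeq gene table. Of the 4 nearest measured neighbours of Il2 (4932438A13Rik, Adad1, Il21 and Cetn4), Il21 was called in both comparisons with naive cells and the other 3 in neither. Il3 and Csf2 are each other's neighbours, and the genes around them (P4ha2, Pdlim4, Acsl6 and Meikin) were not called. The genes around Lif (Castor1, Osm, Hormad2 and Mtmr3) were not called either, although Osm encodes a cytokine of the same family, with 7.23 to 7.92 on all arrays. Of the neighbours of Il6 (Ube3c, Dnajb6, Tyms and 3110082J24Rik), Tyms, the thymidylate synthase gene of dividing cells, rose by 1.11 (adjusted p = 0.00118) and 0.67 (adjusted p = 0.0155, lost without chronic Th2 1).

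The genes whose levels followed each cytokine gene most closely were ranked by Pearson r over the 9 arrays. These values are descriptions, since the arrays share their groups and naive 1 weighs heavily. For Il2 they were Bcl2a1c (0.986), Lcp1 (0.982) and Bcl2l1 (0.981), of which Bcl2a1c has near-identical copies that its probes may also bind. Il3 was followed by Ern1 (0.990), Rora (0.981) and Phlda1 (0.981), and Csf2 by Stap1 (0.979), Mid1ip1 (0.969) and Lman1 (0.968). For Lif they were Acot7 (0.993), Ybx3 (0.991) and Ap2b1 (0.989), and for Il6 Mmp13 (0.982), Lancl3 (0.974) and Arl14 (0.973). Among the 5 genes themselves the closest pair was Csf2 and Lif (0.957), and Lif ranked 16 in the list of Csf2. Csf2 had 0.923 with Il3 and 0.916 with Il2, Il3 had 0.915 with Il6, and Il2 and Il6 were the least alike (0.495). Mmp13, a collagenase gene, had 6.02, 5.81 and 5.81 in naive cells, 8.00, 10.22 and 10.15 in acute and 7.53, 7.86 and 9.65 in chronic Th2 cells, and so showed the step to chronic Th2 3 that Il6 showed.

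Cells other than T cells can make IL-6, GM-CSF, IL-3 and LIF, so their markers were set beside these levels. The T cell gene Cd3e was 11.41 to 12.22 and Cd4 was 9.49 to 10.81 on the 9 arrays, and Cd44 rose by 1.93 and 1.89 in the Th2 groups. Of 3 B cell, 4 NK cell and 5 dendritic cell markers, 0 were above the background level on any array. Of 7 macrophage and monocyte markers, 1 (Cd68, 7.96 to 8.35) was above it, and Adgre1, Csf1r, Lyz2, Cd14, Marco and Mrc1 were below it on all arrays. Of 7 mast cell and basophil markers, 0 or 1 per array was above it, the 1 being Kit, and Cpa3, Fcer1a and Ms4a2 were at 3.76 to 4.81. Summed linear intensities of the macrophage list were 558 to 606 in naive, 502 to 544 in acute and 562 to 585 in chronic Th2 cells. Those of the endothelium and stroma list were 826 to 1407, 986 to 1188 and 838 to 1048, with 4 of 8 genes above the background level on each array. Its gene Pecam1, which leukocytes express too, was 9.56, 7.84 and 7.39 on the naive, 8.20, 9.27 and 8.83 on the acute and 7.36, 7.08 and 8.56 on the chronic Th2 arrays. It was thus higher on chronic Th2 3 than on chronic Th2 1 and 2, by 1.20 and 1.49, as Il2, Il3, Csf2 and Il6 were, while the endothelial genes Cdh5 and Kdr were below the background level on all arrays (5.70 to 6.16), and the part of such cells in the result was not tested. All 5 markers of type 2 innate lymphoid cells, which Th2 cells share in part, were higher on all Th2 than on all naive arrays, and 4 of them (Id2, Rora, Klrg1 and Il17rb, not Arg1) were called in both Th2 groups, the call of Il17rb in acute Th2 cells being lost without any 1 of 6 arrays. Of all genes, 8.8% and 15.6% were higher without overlap in acute and chronic Th2 cells, and 3.67% and 3.68% were called higher. The Th2 cells were sorted for CD4, and the part of innate lymphoid cells in the result was not tested. Of 3 eosinophil, 4 neutrophil, 5 lung epithelium and 2 CD8 T cell markers, at most 1, 1, 2 and 1 per array were above the background level. In all lists of other cell types except the innate lymphoid one, 0 genes were called in acute Th2 cells and 1 in chronic Th2 cells (Cd79a, lower, adjusted p = 0.0459, lost without 8 of the 9 arrays). The shares of all genes were 3.67% higher and 2.2% lower in acute, and 3.68% and 4.2% in chronic Th2 cells.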

How the data were processed

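The values analysed are deposited log2 intensities, 1 per probe set and array, of 34760 probe sets on 9 arrays. Per the submitters' processing notes, the authors used RMA, a normalisation across arrays, and limma, with no step named for either. No version, probe annotation, genome build or filter is given in the sources used here. Of the probe sets, 21640 name 1 gene, 1321 name several, and for 11799 no gene was listed. A gene was represented by the brightest of its 1-gene probe sets (by the mean of the 9 arrays), which gave 19937 genes, without a filter on dim genes or further normalisation. Entrez identifiers of 21553 probe sets matched the RefSeq gene table (GRCm38.p6), which was used for names and neighbours. Promoter windows are RefSeq's on that build, and all 5 genes matched.

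Groups come from the titles. Group means were compared with limma 3.58.1 in R 4.3.3 (two-sided moderated tests on all 9 arrays, adjusted by Benjamini and Hochberg over all genes), after the script was tested on simulated data. The number of arrays limits the precision. Named were the 5 genes, their receptors, neighbours and the 3 most similar genes each, the other cell type markers, and up to 3 called genes with the largest difference in each list. Genes that complete a count of few members were named after their values were seen. So were Nr4a1, Tnf, Cd69, Fos, Jun, Fosl1, Rel, Irf4, Ccl3, Xcl1, Dusp1 and Pecam1. The 5 genes, the lists and the background level were chosen with earlier results of these data known. The lists are the receptors, cytokines of the same receptor families, JAK-STAT signalling and feedback, IL-2 and STAT5 targets, NFAT, AP-1 and NF-kB factors, repressors of Il2, cytokine mRNA decay, T cell receptor induced early genes, and markers of the sorted and of other cell types. Alternatives changed the normalisation, the filter, the probe sets, the variance model, the array weights, the samples fitted and the replicate block, and left out each array in turn.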

Additional observations from a re-analysis of the deposited data

How the results depend on the processing

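The count of the 5 genes called in acute Th2 against naive cells, 2 with all arrays, was 4 with array weights, 4 without naive 1 and chronic Th2 3 (chosen after seeing the data), 1 after a filter on dim genes, which removed Il6 before the fit, and 2 to 4 when each array was left out in turn. In chronic Th2 against naive cells, 1 with all arrays, it was 2 with array weights, 0 with only the 6 arrays compared, 3 without those 2 arrays and 0 to 2 when each array was left out. Between the Th2 groups, 0 with all arrays, it was 4 with array weights, 4 without those 2 arrays and 0 when each array was left out. Il2 reversed in chronic Th2 against naive cells, to -1.34 with array weights, -1.10 without naive 1 and -1.85 without naive 1 and chronic Th2 3, and it ranged from -1.10 to 2.03 when each array was left out. No other difference of the 5 genes changed its sign in the alternatives run. The differences of Il3 and Il6 in acute Th2 cells were called in all of them that kept the gene. Over all genes, 1171 were called in acute Th2 against naive cells, but 643 with arrays centred on the olfactory receptor genes, 4019 with array weights, 762 with the 6 arrays, 2624 without the 2 arrays and 653 to 2424 when each array was left out. In chronic Th2 against naive cells 1571 were called, but 3599 centred, 4675 weighted, 686 with 6 arrays, 4665 without the 2 arrays and 734 to 3438 when each was left out. Between the Th2 groups 6 were called, but 44 centred, 3 with a variance trend and robust variances, 6721 weighted, 2 with 6 arrays, 1087 without the 2 arrays and 0 to 12 when each was left out. Of the calls in chronic Th2 against naive cells 46.7% were higher, but 8.72% when centred, where the median of all genes shifted by -0.41, and by -0.38 between the Th2 groups. Relative to the median, Il3 between the Th2 groups was then -2.06. Of the calls in acute Th2 against naive cells 62.5% were higher, but 48.5% weighted and 49.8% without naive 1. Between the Th2 groups 50% were higher, but 80% of 5 calls after quantile normalisation and 0% when centred. With a replicate block 1261, 1844 and 0 genes were called in the 3 comparisons, and 2, 1 and 0 of the 5 genes. Same-numbered arrays had correlations of deviations from -0.09 to 0.57, and arrays of unlike number from -0.56 to 0.44. The titles do not say that the numbers pair samples, so they were not taken to. Whether they do cannot be told from these ranges. Apart from the settings whose construction removes arrays or genes, the cause was not tested.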
